A study of Felis catus with 2 samples.

Results

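Opticin and the cartilage-type collagens of the vitreous body are represented here by 5 genes, OPTC, COL9A1, COL9A2, COL9A3 and COL2A1. They were chosen by name, as products attributed to the nonpigmented ciliary epithelium, and with earlier results of these data known. Each is present among the 32065 loci for which expression was listed. Polyadenylated RNA was profiled in 2 libraries, 1 from a domestic cat affected by primary congenital glaucoma (PCG) and 1 from an unrelated control without the disease, each 2 months of age. In the affected pedigree the disease is inherited with a 4-base insertion in LTBP2, and the genotype of the sequenced cats is not given in the sample labels. The samples are labelled as iridocorneal angle, and according to the study's methods ciliary body, meshwork and some sclera were dissected with it. Because each condition has 1 library, no difference between the cats has a replicate check and no p-value was calculated, so all values describe these 2 libraries.

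The vitreous is a gel held open by thin collagen fibrils. Type II collagen, a homotrimer of the COL2A1 chain, forms the core of these fibrils. Type IX collagen is assembled from the products of COL9A1, COL9A2 and COL9A3 and decorates the fibril surface. Collagens of types V and XI are also incorporated into the fibril. Opticin is a small leucine-rich proteoglycan family member that binds to vitreous fibrils and is secreted by the nonpigmented epithelium of the ciliary body. The same collagens build hyaline cartilage, and inherited defects in COL2A1 and the COL9 genes cause Stickler syndrome, in which the vitreous and the joints are abnormal.

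Expression was listed as FPKM, the number of fragments scaled by exon length and library size, so levels can be compared between genes per unit of length. Where 2 levels of a gene are given side by side, that of the normal cat stands first. The affected to normal difference was expressed as a log2 ratio of FPKM + 1, and loci were used when they had at least 1 FPKM in at least 1 library, which held for 16676 loci. The libraries were similar in depth, with values scaled to about 71200000 fragments for the normal cat and 67600000 for the affected cat. LTBP2 itself was listed at 16.7 FPKM in the normal cat and 54.8 FPKM in the affected cat.

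All 5 genes were among the abundant transcripts of both libraries and were higher in the affected cat. Their levels lay between 334.5 and 519.6 FPKM in the normal cat and between 1203 and 1718 FPKM in the affected cat, and these ranges do not overlap. Even the lowest of them exceeded 98.5% of the loci used in the normal cat and 99.5% in the affected cat. Together they accounted for 0.303% of all FPKM in the normal cat and 1.03% in the affected cat. In each case the affected value was at least 2-fold higher, so 5 of 5 genes passed that threshold, against 8.14% of the 16676 loci used. A further 8.75% of loci were at least 2-fold lower. Among the 830 loci that averaged at least 100 FPKM, where these genes belong, 15.2% were at least 2-fold higher. The median log2 ratio of the 5 genes was 1.84, compared with −0.0047 over all loci used and 0.09 over the 830 abundant loci. Since the 5 genes were chosen with earlier results of these data known, these contrasts are descriptive only.

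**Figure D1:**
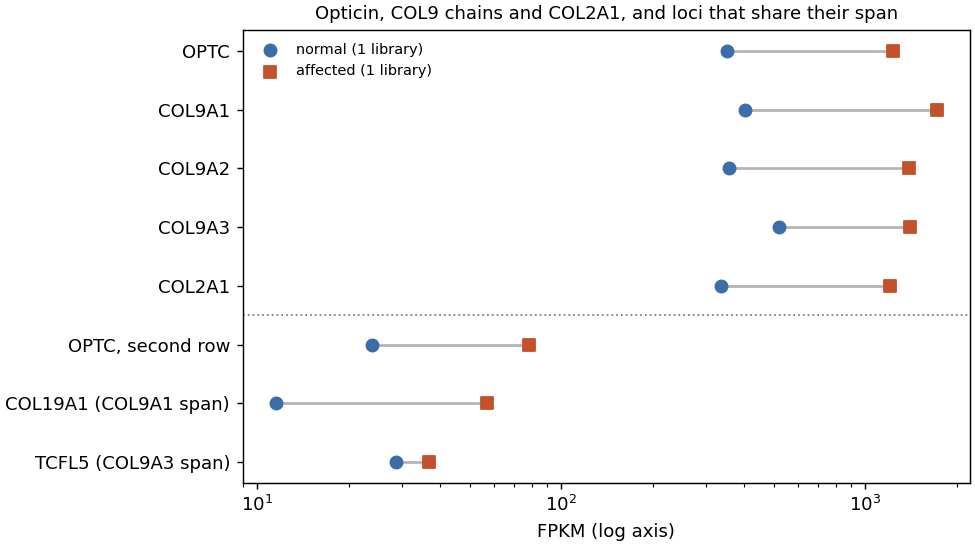
FPKM on a log axis for OPTC, COL9A1, COL9A2, COL9A3 and COL2A1 (above the dotted line) and for the loci listed with the same span (below it), in the normal library (blue circles) and the affected library (orange squares). The 5 genes move from 334.5 to 519.6 FPKM in the normal to 1203 to 1718 FPKM in the affected library, and the loci below the line lie at 78.1 FPKM or less.

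OPTC, which encodes opticin, lies on chromosome F1 of felCat5 (chrF1:41524491-41535796). It was listed at 351 FPKM in the normal cat and 1235 FPKM in the affected cat, a 3.52-fold difference and a log2 ratio of 1.81. Only 370 of the loci used had a higher log2 ratio. OPTC ranked 239th of all listed loci in the normal library and 75th in the affected library.

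COL2A1, the chain of type II collagen, lies on chromosome B4 (chrB4:77368619-77399974). Its level was 334.5 FPKM in the normal cat and 1203 FPKM in the affected cat, which is 3.6-fold higher (log2 ratio 1.84). Its rank moved from 248th to 79th. OPTC and COL2A1 kept nearly the same proportion in the 2 cats, with an OPTC to COL2A1 ratio of 1.05 in the normal cat and 1.03 in the affected cat.

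COL9A1, which encodes the alpha 1 chain of type IX collagen, lies on chromosome B2. Its listed span (chrB2:65625794-66063518) is also that of the collagen gene COL19A1, so it is not the position of COL9A1 alone. COL9A1 showed the largest difference of the 5 genes, with 403.5 FPKM in the normal cat and 1718 FPKM in the affected cat (4.26-fold, log2 ratio 2.09). It was the only one of them that was at least 4-fold higher on the log2 scale used, a threshold passed by 1.68% of the loci used. In the affected library it was the 41st highest locus, compared with 207th in the normal library. The gene has a long and a short form that start from separate promoters, and each listed value adds up all transcripts of a locus, so these forms were not analysed separately here.

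COL9A2, on chromosome C1 (chrC1:30357594-30370900), encodes the alpha 2 chain. It was listed at 355.6 FPKM in the normal cat and 1391 FPKM in the affected cat, a 3.91-fold difference (log2 ratio 1.96). COL9A3, on chromosome A3 in a span also listed for TCFL5 (chrA3:1224783-1256597), encodes the alpha 3 chain and showed the smallest difference. Its level was 519.6 FPKM in the normal cat and 1402 FPKM in the affected cat, which is 2.7-fold higher (log2 ratio 1.43). COL9A3 was thus the highest of the 5 genes in the normal library, and COL9A1 was the highest in the affected library.

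The counting error of these values is small at this depth. An effective transcript length of 1 kilobase would give between 23805 (COL2A1) and 36972 (COL9A3) fragments in the normal library, and between 81261 (COL2A1) and 116070 (COL9A1) in the affected library. On that basis the 95% counting interval of the fold difference was 3.47 to 3.57 for OPTC, 3.54 to 3.65 for COL2A1, 4.2 to 4.31 for COL9A1, 3.86 to 3.97 for COL9A2 and 2.67 to 2.73 for COL9A3. The intervals of OPTC and COL2A1 overlap, and those of the COL9 chains are separate from each other. In the normal library the levels of COL9A2 (351.2 to 360.0 FPKM) and OPTC (346.6 to 355.3 FPKM) could not be ordered. The same holds for COL9A3 (1393 to 1411 FPKM) and COL9A2 (1382 to 1400 FPKM) in the affected library. These intervals cover counting error only and do not include the variation between cats.

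Ratios between chains within a library are independent of the scaling between the cats. The summed COL9 level was 3.82 times that of COL2A1 in the normal cat and 3.75 times in the affected cat, so type IX and type II transcripts stood in almost the same proportion. The balance among the 3 COL9 chains differed more. COL9A3 made up 40.6% of the summed COL9 level in the normal cat and 31.1% in the affected cat. The share of COL9A1 was 31.6% and 38.1%, and that of COL9A2 was 27.8% and 30.8%. The COL9A1 to COL9A3 ratio was 0.777 in the normal cat and 1.23 in the affected cat, a 1.58-fold difference, whereas the COL9A1 to COL9A2 ratio was 1.13 and 1.24.

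For 3 of the 5 genes a second locus was listed with an identical span. An identical listed span does not show that the genes themselves overlap. Strand is not given among the listed values, so fragments of such loci may not be fully separated. The second row named OPTC had 23.8 FPKM in the normal cat and 78.1 FPKM in the affected cat, or 6.77% and 6.33% of the main row. COL9A1 was listed with the same span of 437725 bases as COL19A1, the chain of type XIX collagen. COL19A1 had 11.5 and 57.1 FPKM, or 2.85% and 3.32% of COL9A1. In the RefSeq annotation of a later cat assembly (F.catus_Fca126_mat1.0), COL19A1 is the next protein-coding gene to COL9A1, with a gap of 1219 bases between them. COL9A3 shares its span with TCFL5, a transcription factor gene, at 28.6 FPKM in the normal cat and 36.6 FPKM in the affected cat (log2 ratio 0.35). No other listed locus overlapped COL2A1 or COL9A2 by 1 base or more. PRELP, a leucine-rich proteoglycan gene that neighbours OPTC in the RefSeq annotation, was listed at 87.0 and 196 FPKM (log2 ratio 1.16).

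**Figure D2:**
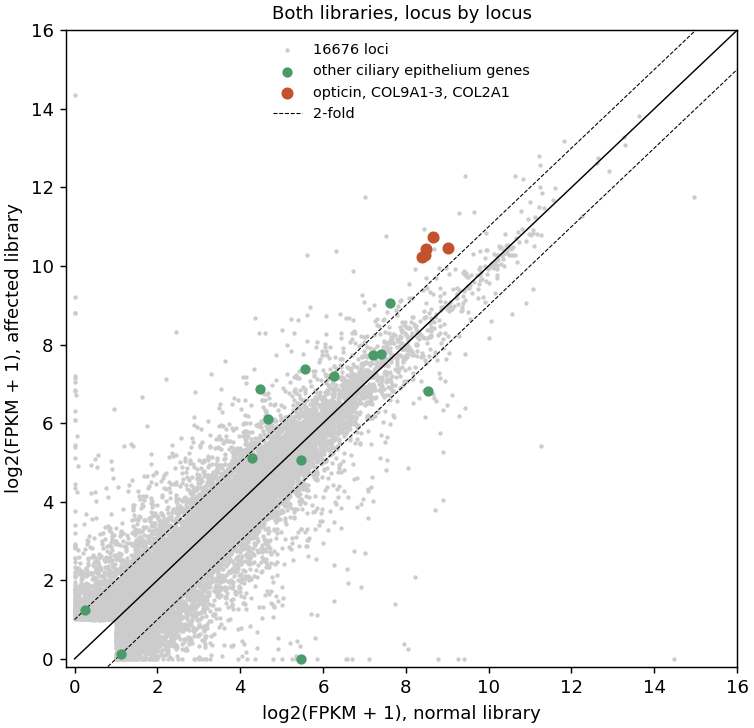
Each of 16676 loci is plotted by log2(FPKM + 1) in the normal library (x axis) and in the affected library (y axis), with dashed lines at 2-fold. Opticin, COL9A1 to COL9A3 and COL2A1 (orange) form a tight group above the upper line, and 4 of the 13 other ciliary epithelium genes (green) lie at or above it.

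The transcripts closest to these genes over the 2 libraries were mostly each other. Likeness was measured as the distance on log2(FPKM + 1) to 11659 other loci with a gene symbol, and with only 2 libraries it describes level and difference alone. For OPTC the nearest loci were COL2A1 (distance 0.08), COL9A2 (0.17) and GNG11, a G protein gamma subunit gene (0.42). The nearest loci of COL2A1 were OPTC (0.08), COL9A2 (0.23) and GNG11 (0.36). For COL9A2 they were OPTC (0.17), COL2A1 (0.23) and COL9A1 (0.35). COL9A1 lay nearest to GLUL, which encodes glutamine synthetase (0.30), followed by COL9A2 (0.35) and COL9A3 (0.47). COL9A3 lay nearest to COL9A1 (0.47), TTR, the gene of the thyroxine carrier transthyretin (0.50), and COL9A2 (0.55). GNG11 was listed at 299.9 FPKM in the normal cat and 964 FPKM in the affected cat.

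The other collagen chains stood mostly in the opposite direction. Of 36 further chains with a COL symbol, 34 passed the minimum, and their median log2 ratio was −1.35. This median was −2.18 among chains that averaged at least 5 FPKM, −1.85 with a pseudocount of 0.1 and −1.12 with no filter. At least 2-fold lower values were found for 20 of them, against 8.75% of all loci used, and at least 2-fold higher values for 5, against 8.14%, with 9 in between. The higher chains were COL18A1 (89.0 and 239 FPKM), a basement membrane collagen, COL19A1, COL22A1 (2.39 and 24.1 FPKM), COL23A1 (5.87 and 15.4 FPKM) and COL1A2. The last of these was listed at 0 in the normal and at 447 FPKM in the affected library. Since COL1A1, its partner in type I collagen, had 2476 FPKM in the same normal library, the 0 is not read as absence. COL1A1 was listed at 41.8 FPKM in the affected library (log2 ratio −5.86). COL3A1 had 415 and 12.9 FPKM (log2 ratio −4.90), and COL6A2, a chain of the beaded filament collagen VI, had 424 and 92.9 FPKM (log2 ratio −2.18).

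The order of the collagen transcripts differed accordingly. COL1A1 was 7.4 times as high as COL2A1 in the normal library, and COL2A1 was 28.8 times as high as COL1A1 in the affected library. COL9A1, COL9A3, COL9A2 and COL2A1 were the 4 highest of 40 collagen chains in the affected library, where the levels of COL9A3 and COL9A2 could not be ordered. In the normal library COL1A1 was listed highest, followed by COL9A3, COL6A2, COL3A1, COL9A1, COL9A2, COL6A1 and COL2A1. COL9A2 (356 FPKM) and COL6A1 (354 FPKM) were nearly equal there, and the place of COL1A2 is unknown. COL9A1, COL9A2, COL9A3 and COL2A1 together made up 25.1% of the summed collagen FPKM in the normal cat and 81.3% in the affected cat. Without COL1A1 and COL1A2 these shares were 40.9% and 87.3%.

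**Figure D3:**
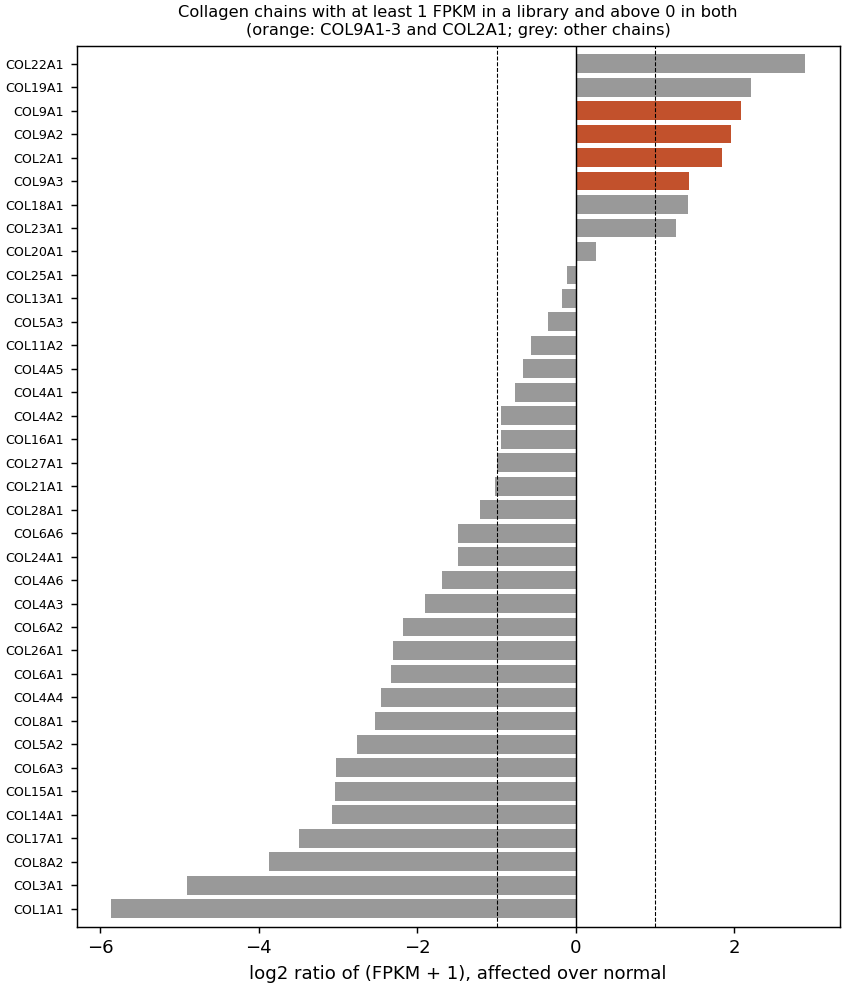
Bars give the log2 ratio of FPKM + 1, affected over normal, for collagen chains with at least 1 FPKM in a library and above 0 in both, with dashed lines at 2-fold. COL9A1, COL9A2, COL2A1 and COL9A3 (orange) lie between 1.43 and 2.09, and most other chains (grey) lie below 0, down to −5.86 for COL1A1.

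The listed collagens that copolymerise with type II collagen were not higher with it. Of 5 such chains, 3 were listed, and all had a log2 ratio below 0, where the median over all loci used was −0.0047. Of these 3, 1 was at least 2-fold lower, against 8.75% of all loci used, and none was at least 2-fold higher, against 8.14%. COL5A2 was listed at 135 FPKM in the normal cat and 19.0 FPKM in the affected cat (log2 ratio −2.76). COL11A2 was scarce in both, with 3.75 and 2.20 FPKM, and COL5A3 had 5.58 and 4.16 FPKM. COL2A1 was thus 2.48 times as high as COL5A2 in the normal and 63.3 times as high in the affected library. COL11A1 and COL5A1 were not analysed here.

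Of 25 genes of enzymes and chaperones that process fibrillar collagens, 7 were lower by at least 2-fold, against 8.75% of all loci used. None was at least 2-fold higher, against 8.14%, and 18 lay in between. The median log2 ratio of the 25 genes was −0.50. PCOLCE, the enhancer of procollagen C-proteinase, was listed at 479 and 37.8 FPKM (log2 ratio −3.63), and LOX, a collagen cross-linking oxidase, at 27.4 and 5.71 FPKM (−2.08). SERPINH1, the collagen chaperone HSP47, was listed at 289 and 90.4 FPKM (−1.66), and BMP1, the C-proteinase itself, at 38.6 and 11.0 FPKM (−1.72). The other genes past that threshold were P4HA1, P4HA3 and ADAMTS2. P4HB, a subunit of prolyl 4-hydroxylase, was nearly equal at 200.4 and 201 FPKM, and the prolyl isomerase gene PPIB had 365 and 285 FPKM. With a pseudocount of 0.1 in place of 1, 2 genes of this list were at least 2-fold higher.

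Of 8 transcription factor and cofactor genes that act on cartilage collagen genes, 1 was at least 2-fold lower, RUNX2 (1.88 and 0.373 FPKM), and none was at least 2-fold higher. Over all loci used these shares were 8.75% and 8.14%. The lower genes numbered 2 with a pseudocount of 0.1 and 0 among genes that averaged at least 5 FPKM, which leaves RUNX2 out. SOX9, which activates COL2A1 and the COL9 genes in chondrocytes, was listed at 7.13 FPKM in the normal cat and 3.40 FPKM in the affected cat (log2 ratio −0.88). Its partners SOX5 and SOX6 had 1.29 and 1.74 FPKM in the normal and 1.16 and 2.37 FPKM in the affected library. SP3, WWP2 and ARID5B had log2 ratios between −0.03 and 0.16. The median of the list was −0.06.

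Genes of cartilage matrix were listed at 0.00625 to 416 FPKM. Of 13 listed genes, 10 passed the minimum, of which 2 were at least 2-fold higher and 5 at least 2-fold lower, against 8.14% and 8.75% of all loci used (median log2 ratio −0.99). Several of them were low, and among genes of the list that averaged at least 5 FPKM 1 was higher and 1 lower (median −0.35), while a pseudocount of 0.1 gave a median of −1.36. The higher genes were PRELP and COMP (0.748 and 4.17 FPKM), a thrombospondin family matrix protein gene. The lower genes were ACAN, the gene of the cartilage proteoglycan aggrecan (1.14 and 0.0377 FPKM), MATN4 (15.5 and 0.378 FPKM), CHAD (3.01 and 0.282 FPKM), CILP (6.93 and 2.02 FPKM) and HAPLN1 (5.99 and 1.53 FPKM). The chondrocyte genes MATN1 (0.00995 and 0.0317 FPKM) and COL10A1 (0.00625 and 0.0133 FPKM) were near 0 in both cats. The most abundant genes of the list were the leucine-rich proteoglycan genes FMOD (352 and 416 FPKM) and PRELP. Of the class of leucine-rich proteoglycans to which opticin belongs, OGN was listed at 306 and 259 FPKM (log2 ratio −0.24) and EPYC at 0.216 and 0.0178 FPKM.

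Of 13 other genes of the nonpigmented ciliary epithelium, 4 were at least 2-fold higher, against 8.14% of all loci used. At least 2-fold lower were 2, against 8.75%, and 7 lay in between (median log2 ratio 0.83). Their summed level was 1157 FPKM in the normal cat and 1629 FPKM in the affected cat, or 960.3 and 1098 FPKM without WFDC1, the most abundant of them. BEST2, an anion channel gene, was listed at 21.4 and 115 FPKM (log2 ratio 2.37), and WFDC1, which encodes a secreted protease inhibitor-like protein, at 197 and 531 FPKM (1.42). The transcription factor gene ZIC2 (24.5 and 67.3 FPKM) was also past the threshold. LHX2 had 167 and 215 FPKM. CA2, which encodes carbonic anhydrase 2, was lower in the affected cat (370 and 112 FPKM), and CPAMD8 was listed at 43.3 FPKM in the normal cat and at 0 in the affected cat, which is not read as absence. Without it 1 gene was at least 2-fold lower. OPTC, COL9A1, COL9A2 and COL2A1 each had a higher log2 ratio than 12 of these 13 genes, BEST2 being the exception. OPTC was 16.4 times as high as BEST2 in the normal cat and 10.8 times in the affected cat, and relative to PAX6 the factor was 2.38 and 5.85. In dissected tissue, more cells of a type and more RNA per cell cannot be told apart.

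Markers of other cell layers differed between the libraries as well, and their counts stand against 8.14% of all loci used at least 2-fold higher and 8.75% at least 2-fold lower. All 11 photoreceptor genes listed had a log2 ratio above 0, and 9 were at least 2-fold higher (summed level 468 and 1852 FPKM, median 1.78). SAG, the gene of rod arrestin, had 48.2 and 427 FPKM, and RCVRN, that of recoverin, 149 and 514 FPKM. Of 8 Müller glia genes, 3 were at least 2-fold higher, GLUL (347 and 1981 FPKM), HES1 and SLC1A3 (median of the list 0.76). The list summed to 932 and 2738 FPKM, and to 585.5 and 756.9 FPKM without GLUL, its most abundant gene, with DKK3 at 266 and 217 FPKM. Of 14 lens genes, 8 were at least 2-fold higher and 2 at least 2-fold lower (median 1.35). Their sums were 59805 and 54088 FPKM, with CRYAA listed at 22978 FPKM in the normal cat and at 0 in the affected cat, which is not read as absence. Without CRYAA the sums were 36827 and 54088 FPKM, in the opposite order, and 1 lens gene was at least 2-fold lower. Among 9 pigment cell genes none was at least 2-fold higher and 2 were at least 2-fold lower, TYR and PMEL (sums 2569 and 1775 FPKM). Of 9 stroma genes 8 were at least 2-fold lower and COL1A2 was the exception (sums 5148 and 768 FPKM, or 5148 and 320.4 FPKM without it). KERA, the gene of the corneal proteoglycan keratocan, had 265 and 0.190 FPKM. The part of these layers in the levels of opticin and the vitreous collagens was not tested.

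**Figure D4:**
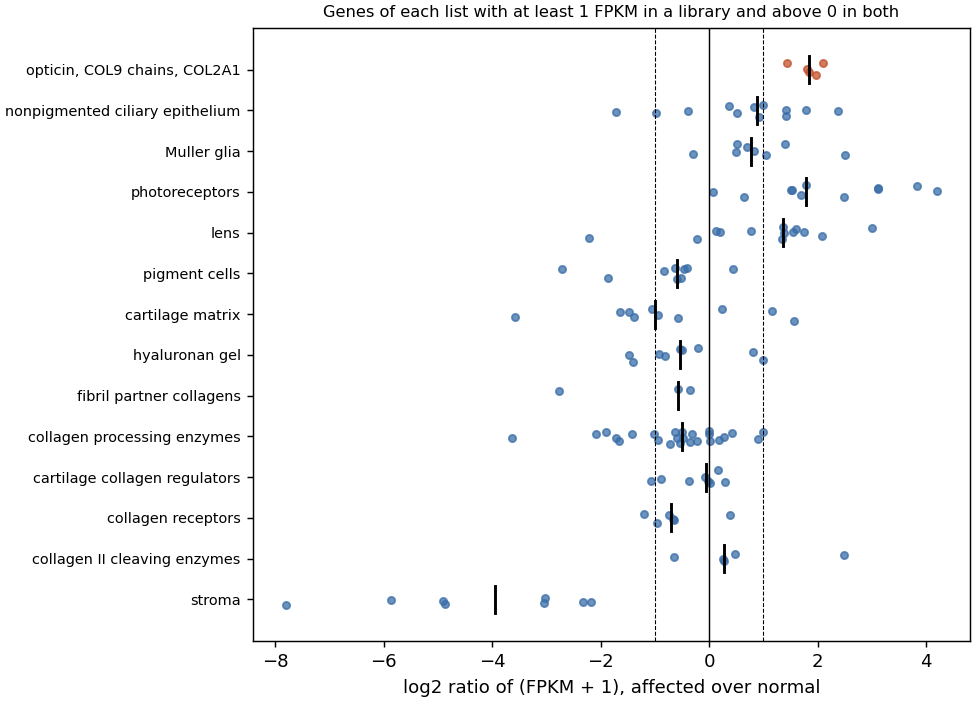
Each point is the log2 ratio of FPKM + 1, affected over normal, of 1 gene with at least 1 FPKM in a library and above 0 in both, grouped by list, with the median as a black bar and dashed lines at 2-fold. Opticin, the COL9 chains and COL2A1 (orange) lie between 1.43 and 2.09, above the points of the collagen processing, regulator, receptor and stroma lists.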

How the data were processed

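RNA of 1 normal and 1 affected cat was analysed from the deposited table. The authors made the FPKM values per locus with Cufflinks 2.1.1, after TopHat 2.0.9 had placed the reads on felCat5 guided by Ensembl genes. The labels name an Illumina TruSeq v2 kit. Scaling between libraries and filters on loci are not given in the sources used here.

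No count model was applied to FPKM. Log2 ratios used a pseudocount of 1, a minimum of 1 FPKM in at least 1 library and a 2-fold threshold, and they understate the change of low loci. Names were matched exactly, and the row with the higher mean was used where a name repeats. Starts were converted to count from 1.

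The depth was derived from low values at unnamed loci, of which 97.6% (1282 loci, normal) and 97.4% (1107 loci, affected) lay within 0.03 of a whole fragment. Exact Poisson and binomial 95% intervals cover counting error only. The derivation of depth and the 2-fold counts were tested on simulated data, and the intervals were not.

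The 5 genes and 14 lists were chosen with earlier results of these data known. Genes were named from the 3 highest by mean FPKM and the 2 with the largest absolute log2 ratio of each list, of which not all are printed, plus the 3 loci nearest to each of the 5 genes. The further collagen chains, defining cartilage markers, loci with shared spans, PRELP beside OPTC, and BMP1, SERPINH1, P4HA1, P4HA3, ADAMTS2, SOX5, SOX6, ZIC2, PAX6, COMP, CILP, SLC1A3 and EPYC were named, and sums without the most abundant gene of a list added, after values were seen. Values of 1 listed gene are not reported here. Analyses used Python 3.11.15, numpy 2.4.6, pandas 2.3.3, scipy 1.17.1 and matplotlib 3.10.9.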

Additional observations from a re-analysis of the deposited data

Results flagged for a closer look

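The second row named OPTC did not enter the log2 ratio given for OPTC. It was listed at 78.1 FPKM in the affected library, above the 23.8 FPKM of the normal library (log2 ratio 1.68). It was noted because it is a further signal under the name of a studied gene. Which transcripts it counts was not analysed here.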

How the results depend on the processing

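Rescaling moved the log2 ratios by more than the counting error but left all 5 genes at least 2-fold higher. With both libraries at the same sum of FPKM they were 1.76 for OPTC, 2.04 for COL9A1, 1.91 for COL9A2, 1.38 for COL9A3 and 1.79 for COL2A1. With the median log2 ratio of loci that averaged at least 5 FPKM set to 0 they were 1.79, 2.06, 1.94, 1.41 and 1.82 in the same order. A pseudocount of 0.1, or the sum of both OPTC rows, kept them within the counting error. A mean of at least 5 FPKM left 815 loci at least 2-fold higher and 691 lower, since fewer loci were used, against 1358 and 1459. A 4-fold threshold left 280 and 298 loci, and 1 of the 5 genes. A pseudocount of 0.1 gave 1992 and 2173 loci. Of 210 recomputed counts for gene lists 181 stayed within 1.5 times the count given, and of 90 list medians 74 moved by at most 0.1. Removal of loci listed at 0 in exactly 1 library, chosen after the data were examined, changed the stroma median from −3.04 to −3.95, since COL1A2 drops out. Depth does not limit the 5 abundant genes, and variation between cats is unknown. No paired analysis was possible because both groups hold a single library.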

Other observations

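Genes of the hyaluronan gel, collagen receptors and collagen-cleaving enzymes, which surround vitreous fibrils in the matrix, were also listed. Over all loci used, 8.14% were at least 2-fold higher and 8.75% at least 2-fold lower. With the normal cat first in each pair of levels, of 9 hyaluronan gel genes with at least 1 FPKM, none was at least 2-fold higher and 2 were at least 2-fold lower, HAPLN1 (5.99 and 1.53 FPKM), a link protein gene, and TNFAIP6 (3.43 and 0.678 FPKM). VCAN, which encodes the hyaluronan-binding proteoglycan versican, had 11.1 and 7.52 FPKM, and the hyaluronan receptor gene CD44 had 19.8 and 9.99 FPKM. With a pseudocount of 0.1, 2 genes of this list were at least 2-fold higher, and among genes that averaged at least 5 FPKM none was at least 2-fold lower.

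Of 6 collagen receptor genes 1 was at least 2-fold lower, ITGA2 (3.58 and 0.982 FPKM), and the median log2 ratio was −0.70. The lower genes numbered 2 with a pseudocount of 0.1 and also with both libraries at the same sum of FPKM, and 0 among genes that averaged at least 5 FPKM, which leaves ITGA2 out. The shared integrin subunit ITGB1 had 190.1 and 121 FPKM, and the discoidin domain receptors DDR1 and DDR2 had log2 ratios of −0.67 and −0.74. Among 5 genes of collagen-cleaving enzymes and aggrecanases that passed the minimum, 1 was at least 2-fold higher and none lower, or 1 lower with a pseudocount of 0.1. The higher gene was the aggrecanase gene ADAMTS4, with 2.90 and 20.9 FPKM (log2 ratio 2.49). The gelatinase gene MMP2 had 325 and 388 FPKM, and MMP14, a membrane-bound collagenase gene, had 119.6 and 168 FPKM.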
